A study of Arabidopsis thaliana with 2 samples.

Results

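CHG regions that lie on CG regions were examined in Arabidopsis thaliana seedlings, in the authors' deposited comparisons of the repair mutant ddb2-3 and of a line called cen with Col. The members were chosen by deposited differences in both contexts: a CHG region on chromosomes 1 to 5 was taken when a CG region of the same comparison covered 1 bp of it or more. The members numbered 666 of 4440 CHG regions of ddb2-3 and 940 of 6832 of cen, or 1606 in all. DNA methylation was read by whole-genome bisulfite sequencing, in which unmethylated cytosines are converted and methylated ones are not. Wild type Col and the insertion line ddb2-3 (DsLoxHs195_05H) have 1 library each in the labels. The insertion is in DDB2, whose protein recognises ultraviolet damage for nucleotide excision repair. Both were whole seedlings of 10 days grown in vitro, and how many plants made a library is not stated. For the cen line no sample was analysed here, so its genotype and age are not known, and Col serves as the control of both comparisons. The question addressed is where methylomes of plants with a lesion in a repair factor differ from wild type.

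Plants methylate cytosines in CG, CHG and CHH contexts, where H is any base but G. CG methylation is copied after replication by the methyltransferase MET1 with VIM proteins. CHG methylation is kept by CMT3, which binds chromatin carrying histone H3 lysine methylation set by SUVH4, SUVH5 and SUVH6, and CHH methylation by DRM2, guided by small RNAs, and by CMT2. Bodies of many expressed genes carry CG methylation alone, while transposons and silent repeats carry CG and CHG methylation together.

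Each region of the authors' deposited tables is a run of 100 bp windows with a difference in methylation level between Col and the other line, listed where it exceeded 0.1. The tables hold no reads, no coverage and no level per library, so the depth behind a region is unknown. The sign of the difference was inferred as Col minus the other line, and every higher and lower given here is exchanged if that inference is wrong. The rule uses the listing of both contexts in the same comparison, so all values of the members are descriptions. No test was run on them, since Col and ddb2-3 have 1 library each, the libraries of cen are not known and neighbouring regions are not independent. The intervals given with shares are 95% Wilson intervals and cover the error of counting alone.

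In ddb2-3, the 666 members made up 15% of CHG regions and met 666 CG regions, 2.2% of the 30324 listed. In cen, the 940 members made up 13.8% of CHG regions and met 935 CG regions, 2.85% of 32840. Some CHG regions touched more than 1 CG region and the reverse, which gave 668 pairs in ddb2-3 and 941 in cen. The members covered 111 kb in ddb2-3 and 174.6 kb in cen. CHG and CG regions had the same start and end in 285 pairs of ddb2-3 and 399 of cen. The CHG region lay inside a longer CG region in 256 and 286 pairs, the CG region lay inside a longer CHG region in 93 and 193, and the ends were shifted in 34 and 63.

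CHG regions over 100 bp met a CG region more often than those of 100 bp, while 200 and 300 bp had overlapping intervals. In ddb2-3, 441 of 4002 regions of 100 bp were members (11.0%, 10.1 to 12.03). At 200 bp 109 of 223 were (48.9%, 42.4 to 55.4), and at 300 bp 69 of 155 (44.5%, 36.9 to 52.4). Over 300 bp 47 of 60 were members (78.3%, 66.4 to 86.9). In cen, 562 of 5823 regions of 100 bp were members (9.65%, 8.92 to 10.4). At 200 bp 140 of 449 were (31.2%, 27.1 to 35.6), and at 300 bp 152 of 430 (35.3%, 31.0 to 40.0). Over 300 bp 86 of 130 were members (66.2%, 57.7 to 73.7). A longer region has more windows in which to meet a CG region, and the part of this in the shares was not tested. Over 100 bp long were 33.8% of members and 5.64% of other CHG regions in ddb2-3, and 40.2% and 10.7% in cen. The longest members were 1000 bp in ddb2-3 and 1100 bp in cen.

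CHG and CG differed from Col the same way in nearly all pairs. In ddb2-3, 661 of 668 pairs had the same direction (98.95%, 97.9 to 99.5), of which 329 were higher and 332 lower in both contexts. In cen, 934 of 941 pairs did (99.3%, 98.5 to 99.6), 774 higher and 160 lower. Just outside the limit, 221 CHG regions of ddb2-3 and 395 of cen touched a CG region end to end without sharing a base. Of their pairs 83.0% and 86.9% had the same direction, against 98.7% and 99.1% of pairs that shared exactly 100 bp. The median CHG difference of the touching regions was 0.172 in ddb2-3 and 0.175 in cen, and that of the pairs sharing 100 bp was 0.178 and 0.175.

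**Figure D1:**
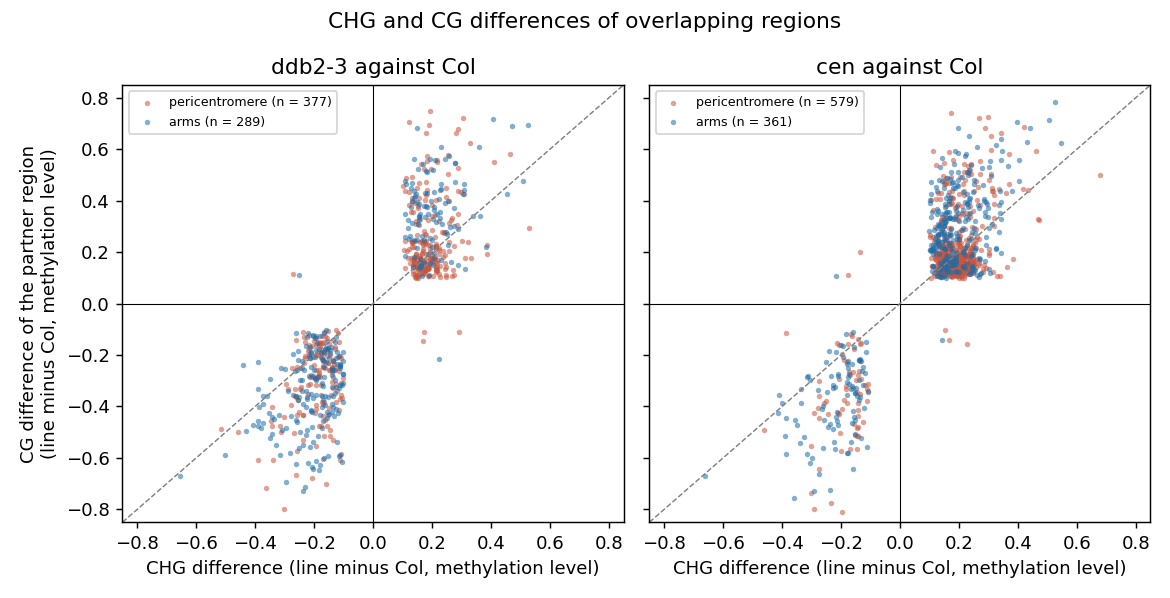
Difference in CHG methylation level (horizontal axis, line minus Col) and in CG methylation level of the partner region sharing most bases (vertical axis, line minus Col), with 1 point for each member of ddb2-3 (left) and cen (right), coloured by place. Nearly all points lie in the quadrants where both contexts are higher or both are lower, and the band without points around 0 is the authors' limit of 0.1; the dashed line marks equal differences.

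The share of gains among members was below that of all CHG regions, which for ddb2-3 did not hold when CHG and CG were asked to have the same ends. In ddb2-3, 332 of 666 members were higher in CHG (49.8%, 46.1 to 53.6) and 334 lower, while of all CHG regions 60.7% were higher and 39.3% lower. With identical ends the share was 58.9% (53.2 to 64.5), an interval that includes the share of all CHG regions. In cen, 777 of 940 members were higher (82.7%, 80.1 to 84.9) and 163 lower, while of all CHG regions 89.8% were higher and 10.2% lower. Among all CG regions, 47.6% were higher in ddb2-3 and 57.1% in cen. Read the other way, 19.1% (17.3 to 21.0) of lower and 12.3% (11.1 to 13.6) of higher CHG regions of ddb2-3 lay on a CG region. The same shares in cen were 23.4% (20.4 to 26.6) of lower and 12.7% (11.9 to 13.5) of higher regions.

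CHG differences of the members were close in size in both directions and both lines, while the paired CG differences were not. Among same-direction pairs of ddb2-3, the median CHG difference was 0.183 for gains (quartiles 0.152 and 0.226, n = 329) and 0.186 for losses (0.149 and 0.238, n = 332). The paired CG medians were 0.239 (0.162 and 0.395) for gains and 0.307 (0.211 and 0.433) for losses. In cen, CHG medians were 0.185 (0.151 and 0.228, n = 774) and 0.181 (0.147 and 0.250, n = 160), beside CG medians of 0.197 (0.146 and 0.333) for gains and 0.357 (0.275 and 0.474) for losses. All of these medians are raised by the limit of 0.1 on both contexts. CHG regions without a CG partner had similar medians, 0.179 for gains and 0.180 for losses in ddb2-3 and 0.174 and 0.179 in cen. CG regions without a CHG partner had medians of 0.228 for gains and 0.234 for losses in ddb2-3. In cen these were 0.222 and 0.247. The CG difference was larger than the CHG difference in 79.5% (74.9 to 83.5) of losing pairs and 65.0% (59.7 to 70.0) of gaining pairs of ddb2-3, and in 86.9% (80.8 to 91.3) and 57.6% (54.1 to 61.1) in cen.

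The size of paired CG gains differed by place. Pericentromeres, taken as 3 Mb to each side of the centromere, hold most silent repeats of this genome. In ddb2-3, CG gains had a median of 0.199 in pericentromeres (n = 219) and 0.347 on the arms (n = 110), while the CHG medians of the same pairs were 0.181 and 0.193. In cen, CG gains had a median of 0.173 in pericentromeres (n = 509) and 0.286 on the arms (n = 265), beside CHG medians of 0.185 and 0.182. CG losses were larger than CHG losses in both places. Their medians in ddb2-3 were 0.280 in pericentromeres (n = 154) and 0.336 on the arms (n = 178), and in cen 0.373 (n = 65) and 0.357 (n = 95).

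**Figure D2:**
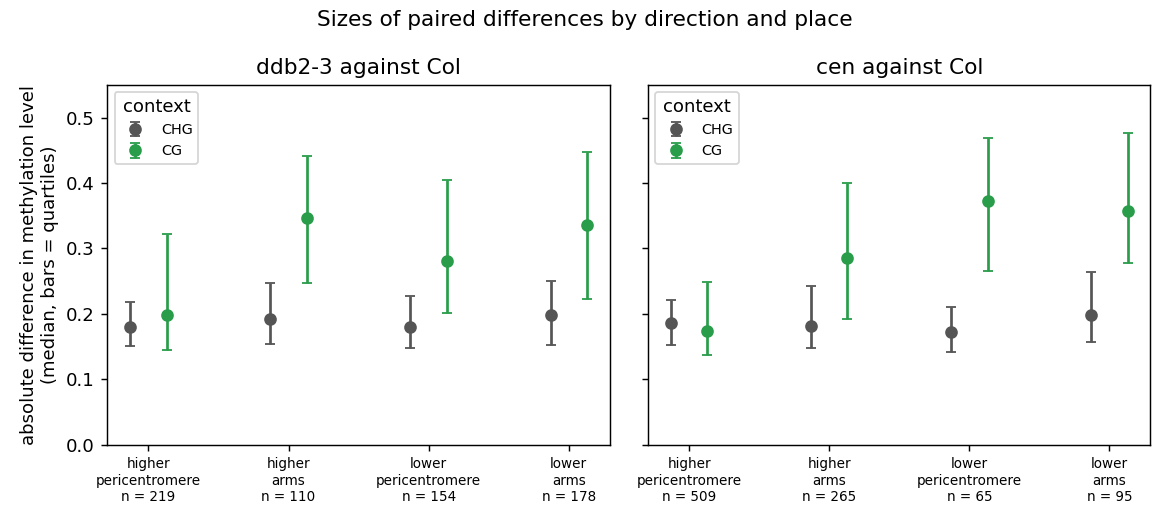
Absolute difference in methylation level (vertical axis) of same-direction pairs in CHG and CG, by direction and place, for ddb2-3 (left) and cen (right); points are medians and bars reach from the lower to the upper quartile. The CHG medians stay between 0.172 and 0.199 throughout, while the CG medians are lowest for pericentromeric gains, at 0.199 in ddb2-3 and 0.173 in cen.

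These medians compare regions of unequal length, since a CG region often reached beyond its CHG partner. Where both regions were the same window of 100 bp, the contexts were closer. CG gains of ddb2-3 then had a median of 0.178 beside 0.177 in CHG (n = 148), and those of cen 0.164 beside 0.173 (n = 305). CG was the larger in 49.3% (41.4 to 57.3) of such gains in ddb2-3 and 44.9% (39.4 to 50.5) in cen. The gap between places in CG gains was narrower in these windows. Their CG medians in ddb2-3 were 0.176 in pericentromeres (n = 115) and 0.252 on the arms (n = 33). For cen they were 0.159 (n = 222) and 0.187 (n = 83). For losses the CG median was 0.221 beside 0.168 in ddb2-3 (n = 94), and 0.279 beside 0.176 in cen (n = 42). CG was the larger in 61.7% (51.6 to 70.9) and 73.8% (58.9 to 84.7) of them.

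Within a direction, CHG and CG sizes tracked each other weakly. Across same-direction pairs Pearson's r was 0.264 for gains and 0.337 for losses of ddb2-3 and 0.367 and 0.361 in cen, with Spearman's rho of 0.143, 0.269, 0.177 and 0.341. The points share libraries and windows, their read depth is unknown, and in identical windows of 100 bp rho lay between -0.0469 and 0.0218. Larger CHG differences lay on CG regions more often: 22.9% (18.4 to 28.2) of CHG regions of 0.3 or more in ddb2-3, against 13.9% (12.6 to 15.2) of those under 0.2, and 26.9% (22.3 to 32.0) against 12.2% (11.3 to 13.2) in cen.

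Members lay outside pericentromeres more often than other CHG regions. The rule asks members to lie on a CG region, and the place of all CG regions was not compared. The part of the rule in these shares was not tested. In ddb2-3, pericentromeres held 377 of 666 members (56.6%, 52.8 to 60.3) and 76.1% (74.7 to 77.4) of CHG regions without a CG partner. In cen they held 579 of 940 (61.6%, 58.4 to 64.7) and 80.2% (79.2 to 81.2). Within 1 Mb of the centromere lay 20.1% of members and 34.8% of other CHG regions of ddb2-3, and 25.2% and 36.2% of those of cen. Among regions of 100 bp alone, 8.88% (7.91 to 9.96) in pericentromeres and 17.2% (15.02 to 19.6) on the arms were members in ddb2-3, and 7.75% (7.01 to 8.56) and 16.6% (14.6 to 18.7) in cen. On the arms, 27.8% (24.5 to 31.4) of lower CHG regions of ddb2-3 and 37.9% (32.2 to 44.1) of those of cen lay on a CG region, the highest shares of the combinations of place and direction.

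**Figure D3:**
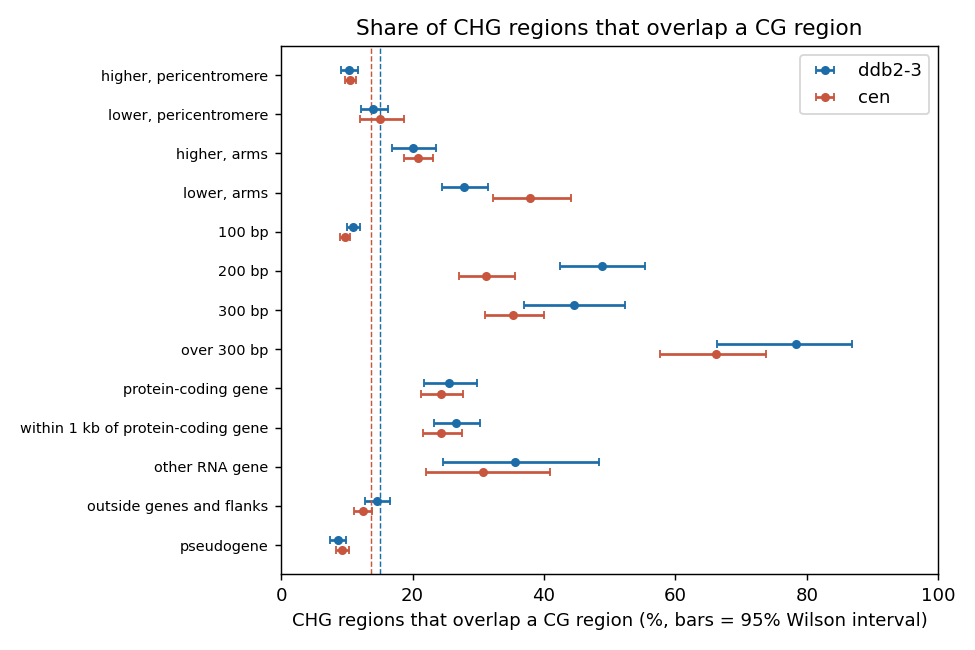
Share of CHG regions that overlap a CG region (horizontal axis, percent) for groups of CHG regions by place and direction, length and gene class, in ddb2-3 and cen; points are shares, bars are 95% Wilson intervals and dashed lines mark all CHG regions (15% and 13.8%). Regions over 300 bp reach 78.3% and 66.2%, and pseudogenes lie at 8.63% and 9.31%.

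Direction and place went together among the members too. In ddb2-3, 58.9% (53.9 to 63.7) of pericentromeric members were higher, against 38.1% (32.7 to 43.8) of those on the arms. In cen these shares were 88.4% (85.6 to 90.8) and 73.4% (68.6 to 77.7). CHG regions without a CG partner also had more gains in pericentromeres, with 67.0% against 48.6% on the arms in ddb2-3. For cen their shares were 92.0% and 86.5%. Runs of members were short. In ddb2-3, 25 members lay within 1 kb of another, in 12 runs of which 2 held both gains and losses, and in cen 61 did, in 30 runs of which 4 were mixed. Within 10 kb, 31 of 70 runs of ddb2-3 and 31 of 141 of cen held both directions.

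By gene class, members lay in or beside protein-coding genes more often than other CHG regions and in pseudogenes less often. What the rule brings to this was not tested, since the gene class of all CG regions was not compared. Regions were placed by their midpoint with RefSeq genes, in which the content of transposons among pseudogenes was not checked. In ddb2-3, 116 members (17.4%, 14.7 to 20.5) lay in a protein-coding gene and 163 (24.5%, 21.4 to 27.9) within 1 kb of its ends, against 8.93% and 11.9% of other CHG regions. Pseudogenes held 171 members (25.7%, 22.5 to 29.1), against 48.0% of the others. In other RNA genes lay 21 members (3.15%, 2.07 to 4.77), against 1.01% of the others. Outside genes and flanks lay 195 members (29.3%, 25.95 to 32.8), close to the 30.2% of the others. In cen, 162 members (17.2%, 14.9 to 19.8) lay in a protein-coding gene and 194 (20.6%, 18.2 to 23.3) within 1 kb. Pseudogenes held 295 (31.4%, 28.5 to 34.4), other RNA genes 27 (2.87%, 1.98 to 4.15), and 262 (27.9%, 25.1 to 30.8) lay outside. The other CHG regions of cen gave 8.55%, 10.2%, 48.8%, 1.04% and 31.4% for these classes in the same order. Members in pseudogenes were higher in 64.3% of cases in ddb2-3 and 92.5% in cen, and those within 1 kb of a protein-coding gene in 40.5% and 67.5%. The other CHG regions were higher in 70.1% and 91.9% of cases in pseudogenes. Within 1 kb of a protein-coding gene they were higher in 51.6% and 85.7%.

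**Figure D4:**
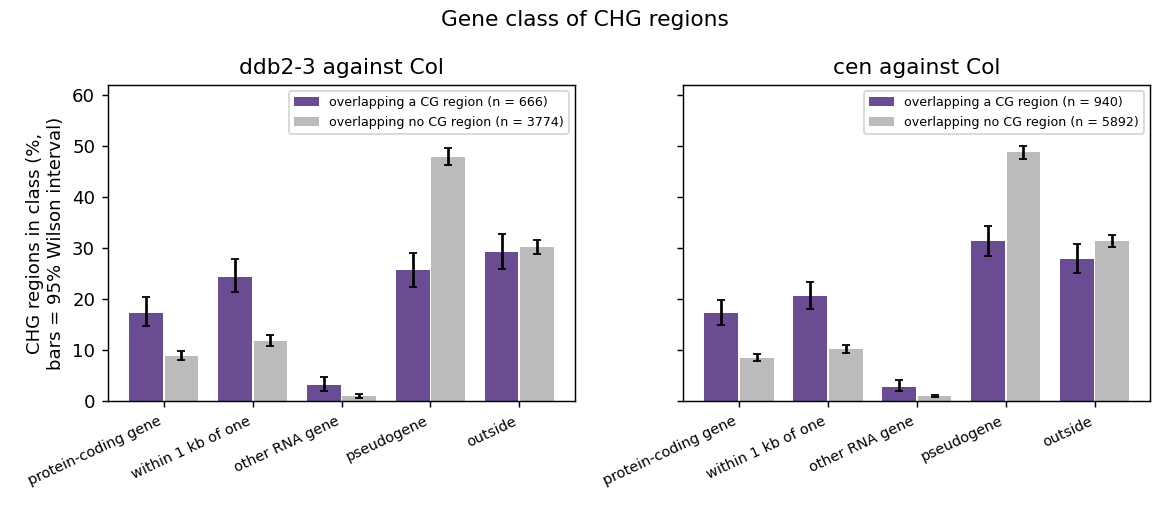
Share of CHG regions in each gene class (vertical axis, percent) for CHG regions that overlap a CG region and for those that do not, in ddb2-3 (left) and cen (right); bars are shares with 95% Wilson intervals. Pseudogenes hold 25.7% and 31.4% of the overlapping regions and 48.0% and 48.8% of the rest.

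The largest loss was at the same place in both lines. At chromosome 2, 13702401 to 13702600 (TAIR10), outside genes and their flanks, the authors' deposited tables gave CHG lower by 0.656 in ddb2-3 and by 0.660 in cen. CG was lower there by 0.669 in both lines, the same value in the authors' deposited tables, and CHH by 0.158 and 0.163. The next losses of ddb2-3 in the authors' deposited table were 0.517 in CHG and 0.489 in CG at chromosome 3, 14761901 to 14762200, and 0.504 and 0.590 within 1 kb of ENDO2 (AT1G68290), which encodes an endonuclease. Below them stood 0.460 and 0.50 at chromosome 3, 15872301 to 15872400, and 0.443 and 0.239 in the pseudogene AT1G52020, in the authors' deposited table. In cen the next CHG losses of the authors' deposited table were 0.463 in the pseudogene AT5G28405, 0.415 at chromosome 1, 11155201 to 11155400, 0.412 in the microRNA gene MIR2939 (AT5G07065) and 0.400 within 1 kb of AT1G23960, with CG lower by 0.491, 0.424, 0.357 and 0.388.

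Gains reached 0.529 in ddb2-3 and 0.679 in cen. The authors' deposited table placed the highest CHG gain of ddb2-3 at chromosome 5, 14940201 to 14940300, where CG was higher by 0.293. It was followed by gains of 0.527 within 1 kb of AT1G21660 and 0.508 within 1 kb of AT2G40095, with paired CG gains of 0.695 and 0.477 in the same authors' deposited table. Then came 0.473 in AT3G09960 and 0.464 in the pseudogene AT3G29660, with paired CG gains of 0.690 and 0.580 in the authors' deposited table. For cen, the authors' deposited table gave CHG gains of 0.679 in the pseudogene AT5G28263, 0.546 at chromosome 4, 9309801 to 9310300, 0.525 within 1 kb of AT4G15050, 0.506 at chromosome 2, 12773601 to 12774400, and 0.473 in the pseudogene AT2G07711. CG was higher at these places by 0.50, 0.624, 0.783, 0.712 and 0.323 in the authors' deposited table. At the 2 pseudogenes the CHG gain was the larger, and at the other 3 places the CG gain was.

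Protein-coding genes held members, 112 genes in ddb2-3 and 159 in cen. Among gains of ddb2-3 in such genes, after AT3G09960, the authors' deposited table listed NAC105 (AT5G66300), a NAC-domain transcription factor gene, higher by 0.309 in CHG and 0.466 in CG. AT4G10740 was higher by 0.286 and 0.307, AT5G47300 by 0.279 and 0.474 over 800 bp, and AT2G27229 by 0.274 and 0.301, in the authors' deposited table. Losses in protein-coding genes of ddb2-3 were led in the authors' deposited table by AT4G16190 (0.389 in CHG and 0.475 in CG), AT5G17470 (0.389 and 0.228) and AT4G13575 (0.335 and 0.448). AT3G25460 (0.265 and 0.263) and AT1G50050 (0.262 and 0.358) completed the highest 5 in the authors' deposited table.

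In cen, gains in protein-coding genes were led by AT3G09960 (0.441 in CHG and 0.684 in CG), AT2G07749 (0.417 and 0.444), AT4G13992 (0.405 and 0.556), AT5G47300 (0.367 and 0.536) and AT3G17400 (0.341 and 0.559) in the authors' deposited table. Losses there were led by AT3G49230 (0.389 and 0.513), AT3G25460 (0.304 and 0.296), AT2G27229 (0.233 and 0.280), AT1G07025 (0.229 and 0.315) and AT5G39490 (0.219 and 0.324) in the authors' deposited table. AT3G09960, AT5G47300 and AT3G25460 were among the highest 5 of their direction in both lines, which share the Col library.

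The 5 longest members were gains in cen and of either direction in ddb2-3. The 1000 bp member of ddb2-3, at chromosome 3, 12259901 to 12260900, was higher by 0.246 in CHG and 0.414 in CG in the authors' deposited table. The pseudogenes AT1G33855 and AT3G13260 held losses of 900 and 800 bp, of 0.238 and 0.282 in CHG and 0.531 and 0.582 in CG, in the authors' deposited table. Inside the region of AT1G33855 the authors' deposited table of cen listed CHG higher by 0.227, with no CG region. Within 1 kb of AT1G36960 another 800 bp were lower by 0.260 and 0.667 in the authors' deposited table, and cen was lower there by 0.3002 and 0.738 in its authors' deposited table. In cen, members of 1100 bp lay in ASB1 (AT1G25220), a subunit gene of anthranilate synthase in tryptophan synthesis, in the pseudogene AT3G29642, and within 1 kb of TRM26 (AT2G17550). They were higher by 0.201, 0.260 and 0.347 in CHG and by 0.253, 0.404 and 0.594 in CG in the authors' deposited table. At all 3 places ddb2-3 was listed too, higher by 0.168, 0.241 and 0.248 in CHG in its authors' deposited table.

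Pairs of opposite direction numbered 7 in each line, and the smaller of both differences reached at most 0.217 in ddb2-3 and 0.157 in cen. In ddb2-3 their median difference was 0.222 in CHG and 0.116 in CG, and in cen 0.166 and 0.143. The authors' deposited table of ddb2-3 gave CHG higher and CG lower within 1 kb of MSRB5 (AT4G04830), a methionine sulfoxide reductase gene (0.290 and 0.111), and of TOM3 (AT2G02180), a gene needed for tobamovirus multiplication (0.222 and 0.217), and in the pseudogenes AT3G29641 (0.174 and 0.109) and AT1G36936 (0.169 and 0.144). CHG was lower and CG higher in the pseudogene AT5G35057 (0.270 and 0.116), within 1 kb of AT1G69050 (0.251 and 0.112) and in AT1G07025 (0.196 and 0.329) in the authors' deposited table. AT1G07025 held a longer CHG region that also met a CG region lower by 0.133 in the authors' deposited table. In cen the place near AT1G69050 had the same pattern, with CHG lower by 0.216 and CG higher by 0.108 in the authors' deposited table. The other 6 opposite pairs of cen had CHG differences of 0.135 to 0.228 and CG differences of 0.101 to 0.199 in the authors' deposited table. They lay in AT4G00130, in the pseudogene AT2G05390, within 1 kb of AT2G07738 and at 3 places outside genes.

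CHH regions lay on 48 members of ddb2-3 (7.21%, 5.48 to 9.43) and 64 of cen (6.81%, 5.37 to 8.60), against 4.23% and 4.67% of all CHG regions. These shares differed by the length of the region. Among regions of 100 bp, 3.63% (2.25 to 5.81) of members and 3.71% (3.13 to 4.38) of other CHG regions of ddb2-3 met a CHH region, and 4.09% (2.74 to 6.07) and 3.86% (3.37 to 4.41) in cen. Over 100 bp the shares were 14.2% (10.3 to 19.4) and 3.76% (1.92 to 7.23) in ddb2-3, and 10.8% (8.10 to 14.4) and 8.24% (6.34 to 10.7) in cen. Of the CHH pairs 46 of 48 in ddb2-3 and 67 of 67 in cen had the direction of the CHG member.

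Members with a CHH region had wider differences in the other contexts. Their medians in ddb2-3 were 0.384 in CG, 0.255 in CHG and 0.126 in CHH, against 0.261 in CG and 0.181 in CHG for members without. In cen they were 0.296, 0.242 and 0.125, against 0.216 and 0.180. Sizes were not compared at equal length. Of the members with a CHH region, 32 of 48 in ddb2-3 and 41 of 64 in cen were over 100 bp, against 33.8% and 40.2% of all members. The order CG over CHG over CHH held at 33 of 48 members of ddb2-3 and 40 of 64 of cen. The highest CHH difference of ddb2-3 in the authors' deposited table was a loss of 0.240 within 1 kb of AT1G34317, with CHG lower by 0.301 and CG by 0.441. It was followed by a CHH loss of 0.221 within 1 kb of OSB1 (AT1G47720), a gene of an organellar single-stranded DNA-binding protein, with CHG lower by 0.251 and CG by 0.422 in the authors' deposited table. Within 1 kb of AT2G34730, at chromosome 2, 14653601 to 14653800, CHH was lower by 0.219 in ddb2-3 and 0.222 in cen, CG by 0.728 and 0.724, and CHG by 0.236 in both, in the authors' deposited tables. Gains in all contexts included AT1G48670 in ddb2-3, higher within 1 kb by 0.207 in CHG, 0.197 in CG and 0.199 in CHH, and AT4G10620 in cen, higher within 1 kb by 0.420, 0.686 and 0.206, in the authors' deposited tables.

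Genes of the methylation and repair pathways were read against all protein-coding genes, and their lists are too short for a count near that share to say anything about them. Counting the gene and 1 kb to either side, 407 of 27444 protein-coding genes (1.48%) had a member in ddb2-3 and 518 (1.89%) in cen. None of the 12 genes that maintain CG and CHG methylation, MET1, CMT3 and the SUVH genes among them, and none of 8 genes of global genome repair, DDB2 included, had a member in either line. Of 21 genes of RNA-directed DNA methylation, SUVH9 (AT4G13460), whose protein helps bring RNA polymerase V to methylated DNA, had a member in ddb2-3, lower within 1 kb by 0.249 in CHG and 0.297 in CG in the authors' deposited table. In cen, MORC6 (AT1G19100, DMS11 in RefSeq), an ATPase gene of silencing, had the single member of that list, lower within 1 kb by 0.274 and 0.663 in the authors' deposited table. At the SUVH9 window the authors' deposited CG table of cen listed a loss of 0.278, with no CHG region. Of 5 genes of active demethylation, ROS1 (AT2G36490, DML1 in RefSeq), a DNA glycosylase gene that removes methylated cytosine, had a member in cen, lower by 0.139 in CHG and 0.219 in CG in the authors' deposited table. At that ROS1 window the authors' deposited CG table of ddb2-3 listed a loss of 0.358, with no CHG region.

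Genes known for methylation-sensitive or imprinted expression held a member at 3 of 16 genes in ddb2-3 and 1 of 16 in cen. In ddb2-3 these were the imprinted genes MPC (AT3G19350) and HDG9 (AT5G17320) and the starch-related gene QQS (AT3G30720), all lower, by 0.175, 0.235 and 0.217 in CHG and 0.308, 0.258 and 0.196 in CG in the authors' deposited table. Cen had no CHG region at any of these windows, and a CG region at HDG9 alone, lower by 0.235 in the authors' deposited table. In cen the member lay in the resistance gene RPP7 (AT1G58602), higher by 0.113 in CHG and 0.192 in CG in the authors' deposited table. The list holds genes chosen for their methylation and was drawn up with earlier results of these data known, so its counts are a description.

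Members were compared with the lists of the other line, which use the same Col library. In ddb2-3, 273 of 666 members (41.0%) met a CHG region of cen, against 29.1% of all CHG regions of ddb2-3. Of the members of 100 bp 34.0% (29.7 to 38.6) did, against 25.6% (24.1 to 27.0) of other CHG regions of that length. In cen, 303 of 940 (32.2%) met a CHG region of ddb2-3, against 18.9% of all, and at 100 bp the shares were 22.4% (19.2 to 26.05) and 15.3% (14.4 to 16.3). A CG region of the other line was met by 308 members of ddb2-3 (46.2%) and 394 of cen (41.9%). The shares over all CHG regions, 10.2% and 8.33%, are no measure for these, since the rule asks members to lie on a CG region and most CHG regions do not. CG regions recurred as a whole, with 11190 of the 30324 of ddb2-3 and 32840 of cen at the same start and end in both. Neither context was listed for the other line at 300 members of ddb2-3 (45.0%) and 464 of cen (49.4%). Of the CHG regions without a CG partner this held for 71.0% in ddb2-3 and 81.3% in cen, with the same limit from the rule. A difference of the Col library alone would be listed in both comparisons, and this cannot be told apart from a difference shared by both lines.

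Places where a member of ddb2-3 met a member of cen numbered 212, with 211 members of ddb2-3 (31.7% of its members) and 212 of cen (22.6%). CHG regions without a CG partner are excluded from these places by the rule, so they give no share to compare. At these places 142 were higher and 70 lower in ddb2-3, and 143 were higher and 69 lower in cen. Pericentromeres held 103 of them (48.6%), against 56.6% of all members of ddb2-3 and 61.6% of cen. By the region of ddb2-3, 43 (20.3%) lay in protein-coding genes, 63 (29.7%) within 1 kb of their ends and 37 (17.5%) in pseudogenes. Other RNA genes held 8 (3.77%), and 61 (28.8%) lay outside. For all members the same classes held 17.4%, 24.5%, 25.7%, 3.15% and 29.3% in ddb2-3. In cen they held 17.2%, 20.6%, 31.4%, 2.87% and 27.9%. CG differences were wider at the shared places than at the other members, which the choice of places can give by itself. A shared place had to pass the authors' limit in CHG and CG of both lines, and the other members in their own line alone. The part of this selection in the gap was not tested, and sizes were not compared at equal length. At the shared places gains had medians of 0.192 in CHG and 0.328 in CG in ddb2-3 and of 0.219 and 0.358 in cen. Members without such a partner had gains of 0.181 and 0.179 in ddb2-3 (n = 191) and 0.176 and 0.179 in cen (n = 634). Losses at shared places had medians of 0.222 and 0.420 in ddb2-3 and 0.213 and 0.374 in cen, beside 0.182 and 0.276 (n = 264) and 0.175 and 0.332 (n = 94) at the others.

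The widest shared gains, ranked by the smaller of both CHG differences, lay at or near AT3G09960, AT4G15050, AT1G21660, AT1G56680 and AT5G50890. In ddb2-3 the authors' deposited table gave CHG gains of 0.473, 0.409, 0.527, 0.361 and 0.338, and in cen the authors' deposited table gave 0.441, 0.525, 0.396, 0.405 and 0.341. CG gains at these places were 0.690, 0.718, 0.695, 0.607 and 0.339 in ddb2-3 and 0.684, 0.783, 0.704, 0.478 and 0.352 in cen in the authors' deposited tables. Shared losses were led, after the place on chromosome 2, by AT1G23960, MIR2939, a place at chromosome 1, 10363101 to 10363300, and ENDO2. At the place on chromosome 1 the longer region of cen has its midpoint in the pseudogene AT1G29650. Their CHG losses in the authors' deposited tables were 0.392, 0.373, 0.406 and 0.504 in ddb2-3 and 0.400, 0.412, 0.351 and 0.335 in cen. At MIR2939 the CG losses were 0.359 and 0.357, and at ENDO2 they were 0.590 and 0.333, in the authors' deposited tables.

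**Figure D5:**
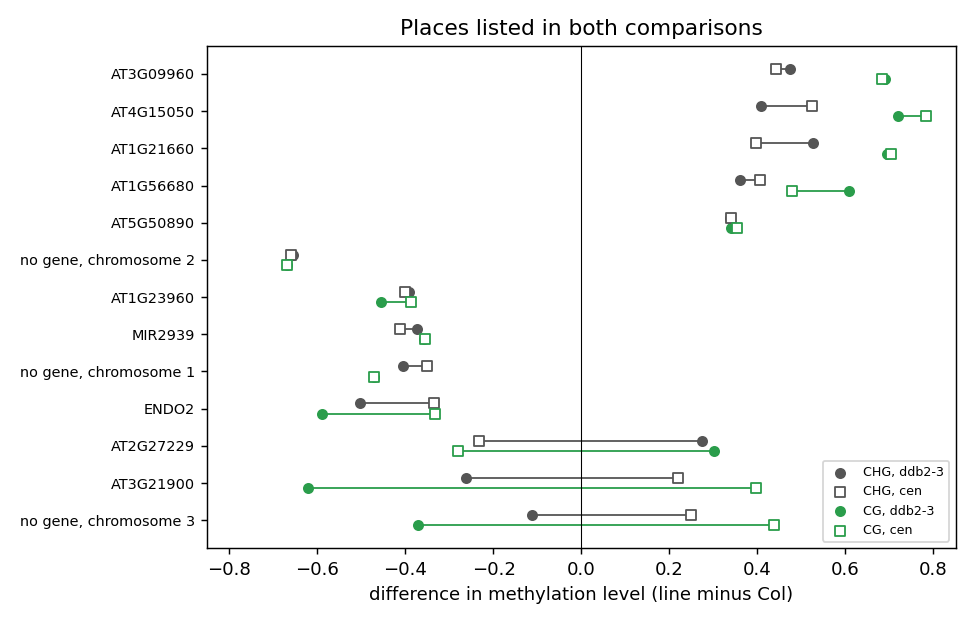
Differences in methylation level (horizontal axis, line minus Col) in CHG and CG for ddb2-3 (filled circles) and cen (open squares) at places that are members in both comparisons, labelled by the gene in which or within 1 kb of which they lie. The first 10 rows are the widest shared gains and losses, and the last 3 rows are the places where the lines have opposite signs, such as AT2G27229 with 0.274 and -0.233 in CHG.

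At 6 shared places the tables held the same value for both lines in a context (within 1.5e-06). Tied CG regions served to infer the sign, so that the 4 tied CG places read as losses follows from that inference, and of all 7 tied CHG regions 4 were positive and 3 negative. The 6 places were singled out after their values were seen. CG was tied at the place on chromosome 2, in the kinesin gene KP1 (AT3G44730), lower by 0.279, within 1 kb of AT4G13590, lower by 0.538, and at chromosome 5, 4738001 to 4738100, lower by 0.561, in the authors' deposited tables. CHG was tied near AT2G34730 and within 1 kb of SLY2 (AT5G48170), an F-box gene of gibberellin signalling, lower by 0.314 in the authors' deposited tables. At the tied CG places other than that on chromosome 2, CHG was lower by 0.183, 0.205 and 0.250 in ddb2-3 and by 0.169, 0.166 and 0.261 in cen in the authors' deposited tables.

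Genes with several members were few. In ddb2-3, 446 genes had 1 member placed at them, 11 had 2, and the pseudogene AT3G44096 had 3, all lower, by 0.174, 0.166 and 0.112 in CHG and 0.213, 0.514 and 0.608 in CG in the authors' deposited table. In cen, 613 genes had 1 member, 29 had 2, AT4G15050 had 3, and the pseudogene AT5G32690 had 4. At AT4G15050 all 3 were higher, by 0.286, 0.327 and 0.525 in CHG in the authors' deposited table. AT5G32690 had 3 gains of 0.303, 0.254 and 0.149 and a loss of 0.195 in CHG in the authors' deposited table.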

How the data were processed

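Bisulfite reads of 10-day seedlings were trimmed with Trim Galore and cutadapt, checked with FastQC and mapped to TAIR10 with Bismark and Bowtie2 (2.0), as named in the submitters' processing notes. The caller of the regions, its test and its coverage limit are not stated in the labels. The authors deposited 6 region lists, 1 per context and comparison, in which each region, on steps of 100 bp, has a difference of methylation level between Col and the line. The list of ddb2-3 carries the insertion's name.

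The sign was inferred. Where both lists hold the same CG difference at a place (within 1.5e-06), both lines have the same level, taken to be mostly no methylation. Of 818 such regions 806 were positive and 12 negative, so positive was read as Col above the line. The 7 tied CHG regions (4 positive, 3 negative) do not decide this, and CHG was read like CG.

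A member's named partner is the CG region sharing most bases. Centromeres were set at 15, 3.6, 14, 4 and 12 Mb on chromosomes 1 to 5. RefSeq's gene table (TAIR10.1) gave names and gene class by midpoint, in the order protein-coding gene, pseudogene, other RNA gene, within 1 kb of a protein-coding gene. It holds no exons, so none are stated. All 62 genes of 5 lists were found. Genes named are the 5 largest CHG gains and losses per line, the same within protein-coding genes, opposite pairs, the longest, those with CHH, shared places, listed genes and genes with most members. Ties and places of opposite sign between lines were chosen after their values were seen. Members and lists were chosen with earlier results of these data known. On simulated data 500 of 500 overlaps were found. The work used Python (3.11.15) with pandas (2.3.3), NumPy (2.4.6), SciPy (1.17.1) for intervals, and matplotlib (3.10.9).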

Additional observations from a re-analysis of the deposited data

Results flagged for a closer look

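At 3 places that are members in both comparisons the lines had opposite signs against Col, and the difference between the lines was not tested. In AT2G27229 (chromosome 2, 11649201 to 11649600 in ddb2-3) the authors' deposited tables gave CHG higher by 0.274 in ddb2-3 and a difference of -0.233 in cen, with CG at 0.301 and -0.280. Within 1 kb of AT3G21900 the CHG difference was -0.262 in ddb2-3 and 0.220 in cen and the CG difference -0.622 and 0.396 in the authors' deposited tables. There the CHG regions, chromosome 3, 7714301 to 7714700 and 7714601 to 7714900, share 100 bp. The authors' deposited CG table of ddb2-3 also lists a region higher by 0.222 at 7714701 to 7714800, inside the CHG region of cen, so ddb2-3 holds both signs of CG at this place. At chromosome 3, 14738101 to 14738200, outside genes, the CHG difference was -0.113 and 0.250 and the CG difference -0.372 and 0.438 in the authors' deposited tables.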

How the results depend on the processing

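No paired analysis was possible because Col and ddb2-3 have 1 library each, the libraries of cen are not known and no result comes from a test. Depth is unknown, so how it limits a region cannot be given. Under other settings 49 values stayed close and 49 moved, and the cause was not tested beyond the settings' own construction. Those that stayed include all values from merging neighbours. They also include the shares in protein-coding genes, pseudogenes and other RNA genes at flanks of 2 kb, which placement by midpoint fixes in advance. Asking that CG cover as much of the CHG region as it leaves uncovered, or more, moved none. It left 630 members in ddb2-3 and 841 in cen. Merging neighbours altered no member, so it tests nothing. In what follows values are for ddb2-3 and then cen. With identical ends, gains were 58.9% in ddb2-3 (49.8% in the report, with 332 gains and 334 losses) and the median CHG difference 0.178 in cen. Under this setting members numbered 285 and 399, pericentromeres held 65.6% and 66.4%, and 14.04% and 10.0% were listed in both comparisons. With CG within 200 bp, they numbered 1080 and 1609, 90.0% and 93.3% of pairs had the same direction, medians were 0.179 and 0.178, pericentromeres held 60.7% and 66.9%, both comparisons listed 26.4% and 17.7%, and gains were 85.9% in cen. At a limit of 0.15 they numbered 423 and 547, with 99.5% and 99.8% of the same direction, medians of 0.210 and 0.211 and pericentromeric shares of 52.0% and 56.3%; in cen gains were 79.5% and 26.9% were listed in both. With 100 bp regions alone they numbered 441 and 562, with medians of 0.174 and 0.172, and 17.5% and 13.7% were listed in both. Pericentromeres of 2 Mb held 41.4% and 47.2%, and those of 4 Mb 66.4% and 70.7%. Any CHG region of the other comparison was met by 41.0% and 32.2%. Flanks of 500 bp with any overlap held 13.4% and 11.0% and left 37.2% and 33.3% outside, and flanks of 2 kb held 36.2% and 27.6% and left 17.6% and 21.0% outside.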
